A study of Homo sapiens with 10 samples.

Results

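The genes described here build and remodel the actin cytoskeleton: actin itself, the proteins that feed, cap, bundle and branch its filaments, the myosin II motor, and the linkers that hold filaments to the membrane. A list of 52 such genes was set by name, with fascin (FSCN1) and MARCKS among them. Every probe set that the platform annotation assigns to a single symbol of the list was taken, which gave 64 of the 12625 probe sets on the array, 6 of them control probe sets of ACTB. The other 58 probe sets were tested among 12558 and represent 45 of the 52 genes. CFL2, CNN2, WASF1, ACTG1, CAP1, FLNA and TPM3 had no probe set of their own.

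The arrays compared a human chronic myeloid leukaemia cell line that is sensitive to cyclophosphamide, an alkylating drug, with a subline resistant to it, 5 arrays each. The labels name neither the line nor the way resistance was raised, and they give no drug exposure beyond growth in culture medium for either group. The resistant cells are a single subline, so resistance cannot be told apart from any other way in which that subline differs. The labels do not say that the 5 samples of a group were separate cultures, so p-values reflect only how these samples vary, and part of that variation may be technical.

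Actin monomers join into filaments that give a cell its shape, stiffness and grip, and the filaments turn over as cofilins sever them and profilins and thymosins handle the free monomers. Crosslinking proteins decide which structure the filaments form: fascin packs them into the tight parallel bundles of filopodia, plastins and alpha-actinins into other bundles and networks, and the Arp2/3 complex into branched sheets. Blood cells rely on their own set, with L-plastin (LCP1) and coronin 1A (CORO1A) as the leukocyte forms, whereas fascin is low in most blood cells other than mature dendritic cells.

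Values are MAS5 signals, the brightness of a probe set on a linear scale. A gene with several probe sets is given by the brightest. Differences are resistant minus sensitive on log2(signal + 114.8), tested with limma, and a gene was called at a Benjamini-Hochberg adjusted p under 0.05 over all 12558 probe sets. The control limit of an array, above which a signal was taken as measured, was taken from control probe sets for bacterial, yeast and mouse sequences and lay between 255.4 and 691.3. The share of probe sets above it was 59.2% ± 4.33 on sensitive and 58.5% ± 6.53 on resistant arrays (SD, n = 5 each).

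Of the markers of granulocyte precursors, 4 of the 9 measured were lower in the subline. The summed signal of the 9 such markers measured was 56104 to 91293 on sensitive arrays and 6149 to 8412 on resistant arrays. PRTN3, ELANE, AZU1 and MS4A3 were called lower, and the other 5 were not called in either direction. KIT did not exceed the control limit on any array, and MPO did so on 1 sensitive and 2 resistant arrays. Of the 9 fibroblast markers measured, SPARC was called higher and LUM lower, and COL1A2, COL3A1, POSTN, FN1 and PDGFRB exceeded the limit on none of the 10 arrays by their brightest probe sets (a dimmer one of COL1A2 and of FN1 exceeded it on 1 array each). The summed signal of the 9 ranged from 2181 to 4561 on sensitive arrays and from 3893 to 6546 on resistant arrays. SPARC alone ranged from 42.3 to 223.6 and from 2626 to 4903, and LUM from 758.6 to 2229 and from 50.9 to 482.6. The median log2 difference of the 9 was -0.20, so the higher sum reflects SPARC and not the set. Markers of endothelial, monocytic, B, T, epithelial and smooth muscle cells held no call. PTPRC (CD45), carried by nearly all white blood cells, lay above the limit on all arrays, at 6675 ± 1030.4 and 5299.5 ± 1035 on sensitive and resistant arrays. The part of these marker changes in the results below was not tested. In bulk RNA, fewer cells with a transcript and less of it per cell cannot be told apart.

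In resistant cells 9 of the 45 actin cytoskeleton genes were higher, 2 were lower and 34 did not pass the test. The higher genes were FSCN1, MARCKS, PDLIM1, AHNAK, AKAP12, MYH10, PFN2, DSTN and TMSB10, and the lower ones were CORO1A and LCP1. Over all 8226 genes measured, 8.4% were called, 4.94% higher and 3.46% lower. Of all genes measured in 3 or more arrays of a group, to which 39 of the 45 belong, 11.7% were called, 6.79% higher and 4.93% lower. The median log2 difference was 0.16 over the 45 genes and 0.03 over all genes. By probe set, 10 of 58 were higher and 2 lower, against 7.41% called over the whole table, 4.42% higher and 2.99% lower. The list was drawn up with earlier results in view, FSCN1 and MARCKS among them, so these shares are a description.

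**Figure D1:**
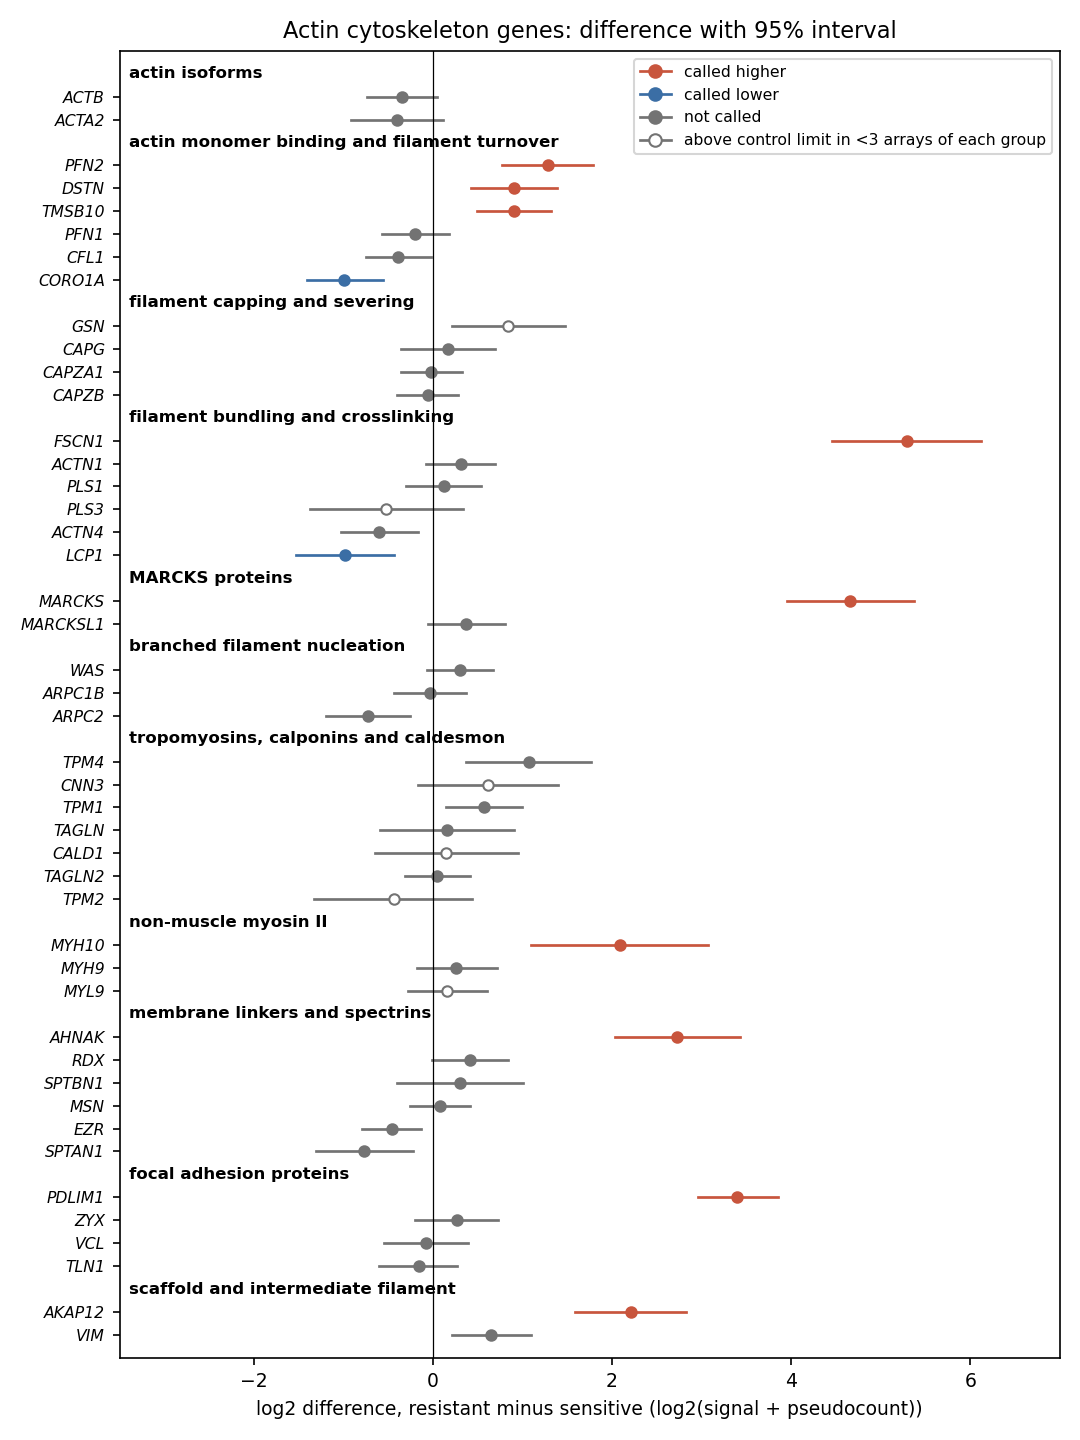
Log2 difference between resistant and sensitive arrays for the 45 measured genes, in groups by role, with 95% intervals from limma (horizontal axis, log2(signal + pseudocount)). Filled red and blue points are genes called higher and lower, grey points were not called, and open points lay above the control limit in fewer than 3 arrays of each group; FSCN1 at 5.29 and MARCKS at 4.66 lie farthest to the right, and CORO1A at -0.99 and LCP1 at -0.98 farthest to the left.

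Many actin genes carry a CArG box, the site of serum response factor (SRF), which drives them together with coactivators that free actin monomers hold back. Promoter sequences are shown to set the called genes beside those that carry this shared element near their start. Promoter windows from 250 bases before to 50 bases after the start, from RefSeq on GRCh38.p14, matched 46 of the 52 genes. FSCN1, PFN2, ARPC1B, MYL9, ACTB and TAGLN have no entry. A CArG box on either strand was found in 6 of the 46 genes (13%): AKAP12, TPM4, ACTN1, ACTG1, FLNA and CNN2. The share over all 27305 genes with a window was 1.6%. A gene can have several windows: the 46 genes had 81 and all genes 35116. By window, 6 of the 81 held a box, against 1.29% of all windows. Of the 9 called genes with a window, 1 held a box, AKAP12. A match of letters is not a bound site, and its absence from a window says nothing about SRF. Below are 60 bases around the box of the 3 measured genes and of ACTG1, a classic example, written 5′ to 3′ on the gene's own strand, with the CArG box in capitals. They lie before the start of transcription at chr6:151239861-151239920 (plus strand, AKAP12), chr19:16067340-16067399 (plus strand, TPM4), chr14:68977703-68977762 (minus strand, ACTN1) and chr17:81512859-81512918 (minus strand, ACTG1).
AKAP12: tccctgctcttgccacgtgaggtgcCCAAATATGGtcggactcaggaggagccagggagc
TPM4: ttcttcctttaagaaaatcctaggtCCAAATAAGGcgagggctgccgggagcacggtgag
ACTN1: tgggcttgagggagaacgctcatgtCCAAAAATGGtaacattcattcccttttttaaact
ACTG1: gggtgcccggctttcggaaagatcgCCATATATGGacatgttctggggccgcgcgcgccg

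The box ends 72 bases before the start in AKAP12, 164 in TPM4, 162 in ACTN1 and 85 in ACTG1. AKAP12, TPM4 and ACTN1 have several annotated starts, and for each of them the box lies before 1 of these. All 46 genes had the GC box GGGCGG, or its complement, in at least 1 window, against 48.3% of all genes. The median number of CpG sites in the richest window of a gene was 31 for the 46 genes and 16 for all genes. Both of these measures take the best window of a gene, so genes with more windows have more chances of a high value. Among the called genes the windows differed widely in this respect: the LCP1 window held 2 CpG sites, that of MARCKS 25 and that of PDLIM1 41.

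Actin itself did not pass the test. ACTB, the cytoplasmic beta-actin, had signals of 116846, 117618, 136939, 92573 and 101954 on the sensitive arrays and 91477, 85226, 108029, 81687 and 76285 on the resistant arrays. The groups overlapped, with most resistant values below the sensitive ones. The log2 difference was -0.35 (95% interval -0.74 to 0.04, limma adjusted p = 0.335). ACTG1, the cytoplasmic gamma-actin, was read only by a probe set that it shares with ACTB, at 85651 ± 7893 on sensitive and 84755 ± 3919 on resistant arrays (SD, n = 5 each). ACTA2, the smooth muscle form, had a log2 difference of -0.40 (adjusted p = 0.429). The ACTB control probe sets at the 3′ and 5′ ends of the transcript gave a ratio of 1.38 ± 0.144 on sensitive and 1.43 ± 0.051 on resistant arrays, a check of RNA integrity in which no difference was detected (two-sided exact permutation p = 0.421).

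Among the proteins that bind monomers and turn filaments over, 3 of 6 genes were higher, 1 was lower and 2 were not called. PFN2 encodes profilin 2, which loads monomers for growth at the filament's fast end. Its signals were 9315, 8910, 5236, 7760 and 8503 on sensitive arrays and 21798, 21713, 11997, 22729 and 19748 on resistant arrays. Every resistant array lay above every sensitive array, with resistant replicate 3 well below the other resistant arrays. PFN2 was 2.43-fold higher on the log2(signal + 114.8) scale (log2 difference 1.28, SE 0.23, limma adjusted p = 0.00453). A second PFN2 probe set had a log2 difference of 1.12, with overlapping groups, and did not pass (adjusted p = 0.0776).

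TMSB10 encodes thymosin beta-10, a small peptide that sequesters monomers. Its probe set and that of PDLIM1 are of a kind that can match more than 1 transcript. Its signals were 21716, 24463, 17610.0, 19829 and 22595 on sensitive arrays and 41939.6, 38004, 28949, 42165 and 50079 on resistant arrays. The groups did not overlap, and the gene was 1.87-fold higher (log2 difference 0.90, SE 0.19, limma adjusted p = 0.0111). Scaling the arrays to a common median ended the call (adjusted p = 0.061).

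DSTN encodes destrin, a relative of cofilin that severs filaments. It gave 7201, 6179.7, 6029, 9383 and 10913 on sensitive arrays and 14917, 12023, 12601, 18387 and 15624 on resistant arrays. The groups did not overlap, but the highest sensitive array came close to the lowest resistant array. DSTN was 1.87-fold higher (log2 difference 0.90, SE 0.22, limma adjusted p = 0.0242). The call was lost under median scaling and without any of 6 arrays (sensitive replicates 1, 2 and 3, resistant replicates 1, 4 and 5), with adjusted p-values up to 0.0699.

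CORO1A encodes coronin 1A, the leukocyte coronin that works with Arp2/3 and cofilin at the cell's edge. Its signals were 16801, 19598, 24232, 17005 and 18313 on sensitive arrays and 8854, 9122, 13469, 7757 and 9319 on resistant arrays. All resistant arrays lay below all sensitive arrays. CORO1A was 1.98-fold lower (log2 difference -0.99, SE 0.20, limma adjusted p = 0.00759).

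The common relatives of these genes were not called. PFN1, the ubiquitous profilin, was at 43747 ± 6277 and 37962 ± 3863 on sensitive and resistant arrays (log2 difference -0.20, 95% interval -0.57 to 0.18, adjusted p = 0.63). CFL1, the ubiquitous cofilin, was at 51732 ± 7775 and 39288 ± 2805 (log2 difference -0.39, 95% interval -0.75 to -0.02, adjusted p = 0.249).

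None of the 4 capping and severing genes was called. CAPZA1 and CAPZB, the alpha and beta chains of the protein that caps the growing end, had log2 differences of -0.02 (95% interval -0.36 to 0.32) and -0.06 (95% interval -0.40 to 0.28). CAPG, a capping protein of macrophages, was at 6457 ± 2324 and 6914 ± 416.7 on sensitive and resistant arrays. GSN, the severing protein gelsolin, exceeded the control limit on no sensitive array and on 1 resistant array.

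Among the proteins that bundle and crosslink filaments, FSCN1 was higher, LCP1 was lower and 4 others were not called. FSCN1 gave 56.3, 42.4, 501, 62.6 and 299 on sensitive arrays and 13747, 11602, 7193, 9322 and 9889 on resistant arrays. No sensitive array exceeded its control limit, and all resistant arrays lay far above theirs. FSCN1 was at least 25.6-fold higher in resistant cells, a bound against the control limit (log2 difference 5.29, SE 0.38, limma adjusted p = 3.09e-06). Over all genes, 0.742% were at or below the limit on every sensitive array, above it on every resistant array and called; in the list these were FSCN1, MARCKS, PDLIM1 and AKAP12.

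LCP1 encodes L-plastin, the bundling protein of leukocytes. Its signals were 26417, 22254, 20483, 21525 and 17183 on sensitive arrays and 12433, 11053, 5801, 14784 and 12320.1 on resistant arrays. The groups did not overlap, and resistant replicate 3 was the lowest. LCP1 was 1.97-fold lower (log2 difference -0.98, SE 0.25, limma adjusted p = 0.0335). The call was lost without any of 7 arrays (sensitive replicates 1, 2, 3 and 4, resistant replicates 1, 2 and 5), with a pseudocount of 20 or with a block for the replicate number, with adjusted p-values up to 0.0874.

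The other crosslinkers were not called. PLS1, the plastin of intestinal microvilli, was at 3886 ± 480.2 and 4279.7 ± 864.9 on sensitive and resistant arrays (log2 difference 0.12, adjusted p = 0.83). The alpha-actinins ACTN1 and ACTN4 had log2 differences of 0.31 (95% interval -0.08 to 0.69, adjusted p = 0.41) and -0.60 (95% interval -1.03 to -0.17, adjusted p = 0.0996; 0.0263 to 0.046 under the 3 alternatives that called it). PLS3, T-plastin, lay above the control limit in fewer than 3 arrays of each group.

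MARCKS is a substrate of protein kinase C that tethers and crosslinks actin filaments at the plasma membrane and holds phosphoinositides there. It gave 18.3, 18.9, 342, 102 and 13.0 on sensitive arrays and 5068, 4878, 4112, 4449 and 4564 on resistant arrays. The sensitive values were at or below the control limit, and the 5 resistant values lay within a narrow band. MARCKS was at least 11.6-fold higher (log2 difference 4.66, SE 0.33, limma adjusted p = 2.57e-06). Its relative MARCKSL1 was bright in both lines, at 14626 ± 2399.5 and 19106 ± 4101, and did not pass the test (log2 difference 0.37, 95% interval -0.06 to 0.81, adjusted p = 0.373).

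None of the 3 genes of branched nucleation was called. ARPC2, a core subunit of the Arp2/3 complex, gave 90687, 60043, 64150.2, 54414 and 40813 on sensitive arrays and 35889, 40205, 39249.7, 33698 and 31934 on resistant arrays. The groups did not overlap, yet the sensitive arrays were widely spread (log2 difference -0.73, 95% interval -1.20 to -0.26, limma adjusted p = 0.0653). Without sensitive replicate 5 the adjusted p was 0.0249. ARPC1B, another subunit, had a log2 difference of -0.03 (95% interval -0.44 to 0.37), and WAS, the activator of the complex in blood cells, one of 0.30 (adjusted p = 0.405).

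Tropomyosins lie along the filament and set which other proteins may bind, and none of the 7 genes of this kind, with the calponins and caldesmon, was called. TPM4 came nearest, with 824, 1140.5, 884, 871 and 804 on sensitive arrays and 3345, 2162, 749.9, 2434 and 2378 on resistant arrays. Resistant replicate 3 lay below all sensitive arrays, and the other 4 resistant arrays lay above them all. The log2 difference was 1.07 (95% interval 0.37 to 1.77, limma adjusted p = 0.0714), and without resistant replicate 3 it was 1.39 (adjusted p = 0.00118). TPM1 was at 1117 ± 225.4 and 1705 ± 277.5 on sensitive and resistant arrays (adjusted p = 0.114), and TAGLN2 had a log2 difference of 0.05 (95% interval -0.31 to 0.41). TAGLN had a log2 difference of 0.16 (adjusted p = 0.885), and TPM2 lay above the control limit in fewer than 3 arrays of each group. CNN3, CALD1 and the myosin light chain MYL9 were at or below the control limit on all 10 arrays.

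Of the non-muscle myosin II genes, MYH10, the heavy chain of myosin IIB, was higher. Its brighter probe set gave 88.0, 279.7, 698, 1062 and 1188 on sensitive arrays and 2626, 2819, 3193, 1951 and 2402 on resistant arrays. All resistant arrays were above all sensitive arrays, which themselves were spread widely. The log2 difference was 2.09 (SE 0.45, limma adjusted p = 0.0136). A second, dimmer MYH10 probe set was at or below the control limit on the sensitive arrays and at least 1.61-fold higher on the resistant arrays (adjusted p = 0.00368). MYH9, the heavy chain of myosin IIA, was at 7940 ± 1643 and 9518 ± 1656 (log2 difference 0.26, adjusted p = 0.58).

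Among membrane linkers and spectrins, AHNAK was higher and 5 others were not called. AHNAK is a very large protein beneath the plasma membrane that joins annexin complexes to actin. Its signals were 108, 67.7, 268, 525 and 288 on sensitive arrays and 2087, 1537, 2809, 1994 and 2172 on resistant arrays. Only sensitive replicate 4 exceeded its control limit among the sensitive arrays, and the groups were far apart (log2 difference 2.73, SE 0.32, limma adjusted p = 0.000166).

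The ERM proteins, which pin filaments to membrane receptors, did not pass. EZR (ezrin) gave 15013, 14616, 15563, 13344 and 13604 on sensitive arrays and 10535, 11715, 10586, 9232 and 10338 on resistant arrays. The groups did not overlap (log2 difference -0.46, 95% interval -0.79 to -0.13, limma adjusted p = 0.107; 0.0228 to 0.0404 under the 3 alternatives that called it). MSN (moesin) was at 63246 ± 4624 and 66746 ± 5416 on sensitive and resistant arrays (log2 difference 0.08, 95% interval -0.26 to 0.41). SPTAN1, alpha-spectrin of the membrane skeleton, was at 1525 ± 384.9 and 862.8 ± 282.6, without overlap (log2 difference -0.77, adjusted p = 0.0983). RDX (radixin) and SPTBN1 (beta-spectrin) had log2 differences of 0.41 (adjusted p = 0.296) and 0.30 (adjusted p = 0.714).

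Of the 4 focal adhesion genes PDLIM1 alone was called. PDLIM1 is a PDZ and LIM domain adaptor that binds alpha-actinin on stress fibres. It gave 219, 169, 114, 196 and 311 on sensitive arrays and 3459, 3092, 2528, 3929 and 2978 on resistant arrays. The sensitive arrays were at or below the control limit and the resistant arrays well above it, so that the gene was at least 8-fold higher (log2 difference 3.40, SE 0.20, limma adjusted p = 8.76e-07). TLN1 (talin), VCL (vinculin) and ZYX (zyxin), which couple integrins to filaments, had log2 differences of -0.16, -0.08 and 0.27, with adjusted p-values from 0.595 to 0.906.

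AKAP12 is a scaffold that holds protein kinases A and C at the membrane and cortex. It gave 57.8, 21.2, 23.7, 262 and 101 on sensitive arrays and 1026, 612, 949.8, 703 and 659 on resistant arrays. It was at or below the limit in sensitive cells, dim but above it in resistant cells, and at least 1.96-fold higher (log2 difference 2.21, SE 0.29, limma adjusted p = 0.000363). This is the called gene whose promoter holds the CArG box printed above. VIM, the intermediate filament vimentin, gave 71262, 46098, 48536, 84213 and 72270.5 on sensitive arrays and 98192, 100421, 95609.9, 105908 and 93798 on resistant arrays. The resistant arrays were all higher and close together, but the difference did not pass (log2 difference 0.65, 95% interval 0.21 to 1.09, limma adjusted p = 0.0805; 0.0466 without sensitive replicate 4).

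**Figure D2:**
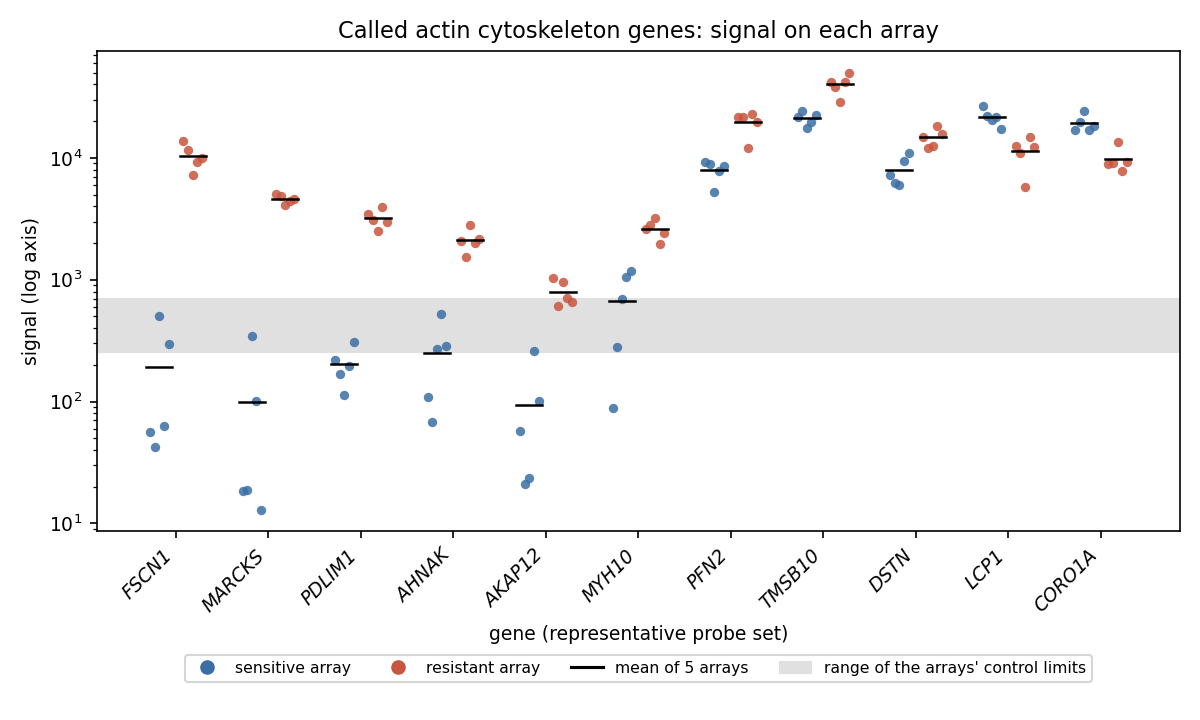
Signals of the 11 called genes on each array (vertical axis, log scale), with sensitive and resistant arrays side by side, the mean as a bar and the range of the arrays' control limits as a grey band. FSCN1, MARCKS, PDLIM1 and AKAP12 lie at or below the limit on every sensitive array and above it on every resistant array, whereas PFN2, DSTN, TMSB10, CORO1A and LCP1 are bright in both lines.

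The groups did not overlap in 15 of the 45 genes (33.3%), where the share over all genes was 9.88%, and in 16 of the 58 probe sets, where the share over all probe sets was 8.5%. Genes measured in 3 or more arrays of a group were 39 of the 45 and 5582 of all 8226. The share without overlap among all such genes was not computed, so the contrast may partly reflect brightness. The genes without overlap were the 11 called ones with ARPC2, EZR, SPTAN1 and VIM. In 6 of the 11 called genes the resistant array nearest to the sensitive values was replicate 3. The size of the difference for genes dim in sensitive cells depended on the pseudocount: with 20 or 500 in place of 114.8, the log2 difference was 5.97 or 3.12 for MARCKS and 3.20 or 1.12 for AKAP12, and both stayed called.

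Pairs of closely related genes were compared for unequal change. Of 16 pairs of relatives drawn up by name, both genes lay above the control limit in 3 or more arrays of a group in 9, and the log2 ratio of the pair was compared between the lines with a two-sided exact permutation test, adjusted over the 9 pairs. In 7 pairs the ratio differed (exact p = 0.00794, the smallest that 5 against 5 allows, adjusted p = 0.0102 each). The share for unrelated pairs was not computed. Several of the 7 set a called gene against a relative that was not called, so the count describes these pairs only. The ratio of MARCKS to MARCKSL1 was at least 8.99-fold higher in resistant cells, a bound because MARCKS was at or below the control limit on all sensitive arrays. MARCKS met the filter only through the resistant arrays, so the test of this pair adds nothing to the call of MARCKS. PFN2 rose relative to PFN1 by 1.48 on the log2 scale (SE 0.29), DSTN relative to CFL1 by 1.29 (SE 0.25) and MYH10 relative to MYH9 by 1.82 (SE 0.58). The size of the MYH10 change depended on the pseudocount, at 2.11 with 20 and 1.26 with 500.

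The other pairs set the crosslinkers and membrane linkers against each other. PLS1 rose relative to LCP1 by 1.10 (SE 0.17), and ACTN1 relative to ACTN4 by 0.91 (SE 0.21), although neither alpha-actinin was called by itself. MSN rose relative to EZR by 0.54 (SE 0.12). TAGLN and TAGLN2 changed ratio by -0.10 (SE 0.30, exact p = 0.746) and MSN and RDX by 0.34 (SE 0.20, exact p = 0.127), which did not pass. A ratio shows unequal change, not that either gene stayed constant.

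**Figure D3:**
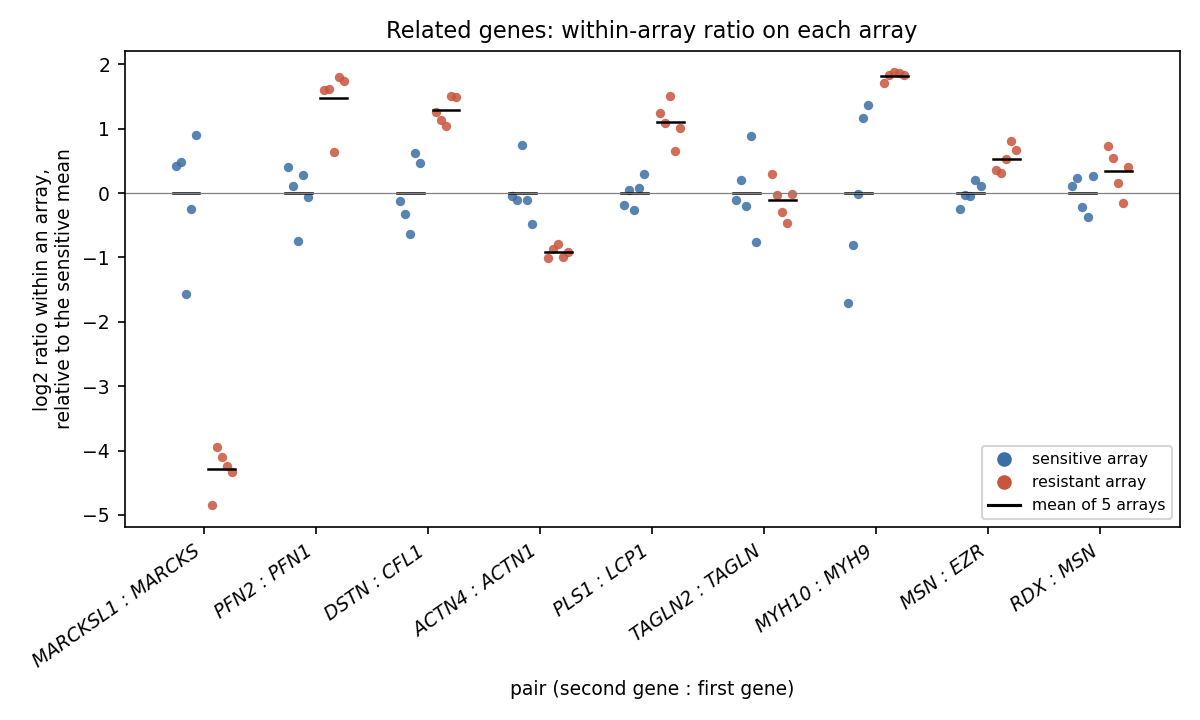
Log2 ratio of the second to the first gene of each of 9 pairs of relatives on each array, relative to the mean of the sensitive arrays (vertical axis), with a point per array and a bar for the mean of 5 arrays. The groups of points separate in 7 pairs, with resistant means of 1.48 for PFN2 against PFN1 and -0.91 for ACTN4 against ACTN1; the distance for MARCKSL1 against MARCKS depends on the pseudocount, since MARCKS is at or below the control limit on all sensitive arrays. The distance for MYH10 against MYH9 also depends on the pseudocount. The points overlap for TAGLN2 against TAGLN and RDX against MSN.

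A further list held 76 other actin regulators: small GTPases, kinases, formins, Ena/VASP proteins, adducins, tropomodulins and others. Of the 66 measured, 8 were higher, 1 was lower and 57 were not called. This is 13.6% called, against 8.4% over all genes. Of the 66, 59 were measured in 3 or more arrays of a group, and these held all 9 calls. Over all such genes 11.7% were called, 6.79% higher and 4.93% lower. The 13.6% also counts dim genes, so the 2 shares are not alike, and the counts are a description. CAP2, a cyclase-associated protein that recycles actin monomers, gave 251, 192, 34.9, 66.4 and 35.6 on sensitive arrays and 1582, 1465, 453, 1427 and 1200.0 on resistant arrays. No sensitive array passed its control limit and 4 resistant arrays did, with replicate 3 lowest. CAP2 was at least 2.85-fold higher (log2 difference 2.54, SE 0.36, limma adjusted p = 0.000687) and was called in 3 of its 4 probe sets.

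PTK2, the focal adhesion kinase, rose from 1177 ± 591.1 to 3143 ± 294 (log2 difference 1.47, limma adjusted p = 0.0126) on 1 of its 2 probe sets. ADD2, beta-adducin of the spectrin skeleton, rose from 1075 ± 388.6 to 2914 ± 543.9 (log2 difference 1.40, adjusted p = 0.00453). Another ADD2 probe set had overlapping groups and was not called (log2 difference 0.47, limma adjusted p = 0.425). VASP, which speeds growth of filament tips, rose from 746.1 ± 268.2 to 2017 ± 732.7 (log2 difference 1.33, adjusted p = 0.0189). TMOD1, a tropomodulin that caps the slow end, was at least 1.23-fold higher (log2 difference 1.71, adjusted p = 0.000683). PTK2 and ADD2 exceeded the control limit on every array of both lines by their brightest probe sets, whereas TMOD1 reached only 316 to 714.6 on resistant arrays. Scaling to a common median ended the call of VASP (adjusted p = 0.0639), as did a block for the replicate number (adjusted p = 0.0593).

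The gene called lower was SSH1, the slingshot phosphatase that activates cofilin. It gave 1464, 885, 1425, 957 and 1448 on sensitive arrays and 573, 627, 815, 713 and 566 on resistant arrays, without overlap (log2 difference -0.79, SE 0.20, limma adjusted p = 0.0316). The call was lost under 8 of the alternatives, with adjusted p-values up to 0.0841. SRF itself was at 6016 ± 524.5 and 6839 ± 467.2 on sensitive and resistant arrays (log2 difference 0.18, 95% interval -0.15 to 0.52, adjusted p = 0.614), and its coactivator MRTFA had a log2 difference of -0.49 (adjusted p = 0.441). The monomer-binding thymosin TMSB4X, relative of TMSB10, was not called (log2 difference -0.57, adjusted p = 0.184).

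**Figure D4:**
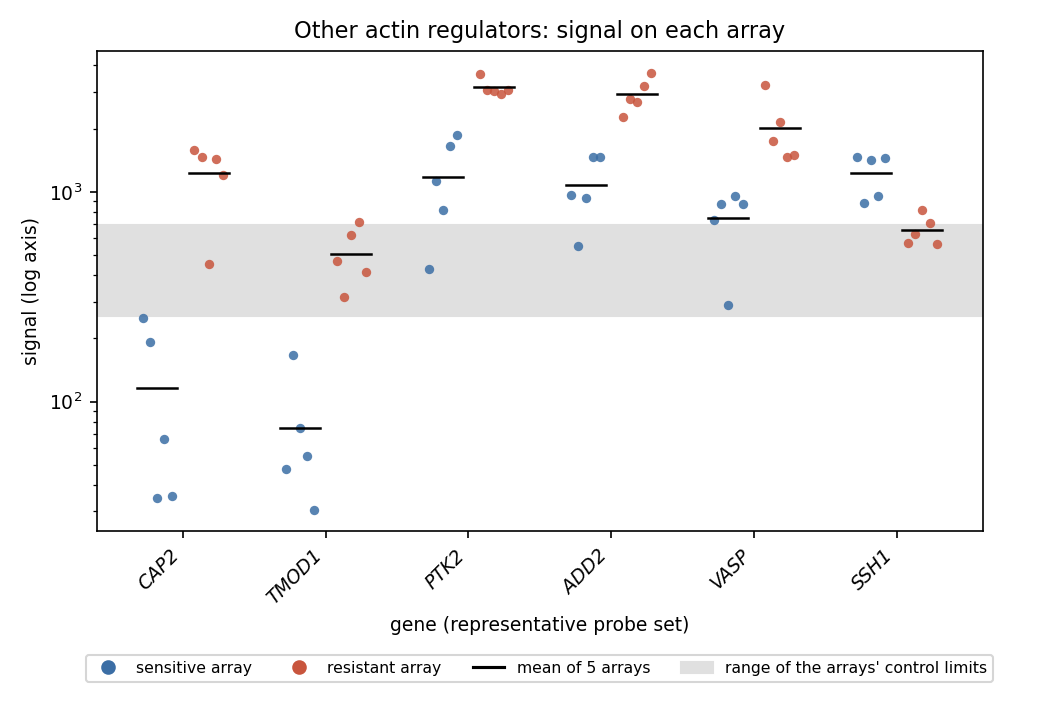
Signals on each array (vertical axis, log scale) of 5 other actin regulators called higher and of SSH1, the gene called lower, with the mean as a bar and the range of the control limits as a grey band. PTK2, ADD2 and VASP are measured in both lines, whereas CAP2 and TMOD1 are at or below the limit on every sensitive array.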

How the data were processed

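Total RNA of 5 sensitive and 5 resistant samples was hybridised to 1-colour arrays. The deposited values are intensities, signals on a linear scale computed by the authors with MAS5, per the submitters' processing notes; MAS5's version is not given in the sources used here, nor are its settings. The 2% trimmed means lay between 2501.33 and 2501.51, so the values had already been scaled. The fit took all 10 columns.

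In the platform annotation 10943 probe sets had 1 symbol, 545 several and 1070 none. Arrays were scaled to a common trimmed mean, and log2(signal + 114.8) was fitted in R 4.3.3 with limma 3.58.1 (lmFit, eBayes), without covariates and without the 67 control probe sets. The pseudocount is the 20th percentile of all signals. The control limit is the 95th percentile of 23 control probe sets without a human target. Where all arrays of a group were at or below it, the fold is a bound: bright-group mean log2 signal minus that of the dim group, with each dim array raised to its limit. On simulated data with 200 of 12558 probe sets changed, the fit recovered 52.9% of log2 changes of 1, 89.8% of 2 and 100% of 4, with 9 false calls. The number of arrays limits the precision.

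The members, the gene lists and the pairs were chosen with earlier results of these data known. Named were called members, ACTB and ACTG1, measured members by role, up to 6 other regulators called in each direction, and relatives of called members. A regulator that meets this rule is not reported here. Alternatives were other pseudocounts (20 and 500), scalings, filters, variance models, probe set rules, a replicate block and leaving out each array.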

Additional observations from a re-analysis of the deposited data

Results flagged for a closer look

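A sample far from the others of its group was looked for in 73 groups of 5 arrays by Dixon's criterion, which chance meets in about 1 in 20 groups, and 4 met it. PFN2 on resistant replicate 3 was low, at 11997 where the other resistant arrays were between 19748 and 22729, and its call held without that array. ACTN1 on resistant replicate 1 was high, at 14625 against 9866 to 10857. TPM4 on sensitive replicate 2 was high, at 1140.5 against 804 to 883.8. TAGLN2 on sensitive replicate 4 was low, at 19050.2 against 24504 to 26716. The cause was not tested for any of them.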

How the results depend on the processing

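Of the 11 called genes, 8 kept their call under every alternative, and DSTN, TMSB10 and LCP1 did not; of the genes not called, TPM4, VIM and ARPC2 passed under 5 alternatives each and ACTN4 and EZR under 3 each. The 2 genes (and probe sets) called lower became 1 with a pseudocount of 20, and 5 with a pseudocount of 500, with the filter on the control limit or with a trended robust variance; leaving out arrays gave 1 to 3. Of the other regulators, the 8 called higher became 5 after scaling to a common median, and the 1 called lower became 2 with a pseudocount of 500, quantile normalization, the filter or the mean of probe sets, and 3 with the trended variance; leaving out arrays gave 6 to 8 higher and 0 to 1 lower. With the replicate block, the members had 9 genes higher and 1 lower, and the other regulators 5 and 0; LCP1, VASP and SSH1 were among the calls lost. After the group mean of each probe set was subtracted, the deviations of same-numbered arrays correlated at 0.00865 to 0.123. By these deviations, 3 of 5 sensitive arrays matched their own number best. These values do not settle whether the numbers mark pairs, and the main fit did not take them as pairs. Several differences near 0 changed sign: after scaling to a common median PLS1 (-0.01), TAGLN2 (-0.08) and MSN (-0.06), after quantile normalization the ratio of TAGLN and TAGLN2 (0.04), and when single arrays were left out the genes below. Common-median scaling moved the median of all probe sets from 0.029 to -0.071. Leaving out arrays gave -0.01 to 0.34 for CAPG, -0.05 to 0.04 for CAPZA1, -0.14 to 0.05 for ARPC1B, -0.15 to 0.37 for TAGLN, -0.03 to 0.09 for TAGLN2, -0.23 to 0.04 for VCL and -0.29 to 0.12 for the ratio of TAGLN and TAGLN2. The cause was not tested. The control limit sets what dim genes can show.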

Other observations

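Probe sets of one gene did not always give the same call. Among the other regulators, LIMK2, a kinase that inactivates cofilin, was called lower on a dimmer probe set (log2 difference -0.86, limma adjusted p = 0.0148) and not on the brightest. NCK1, an adaptor that recruits nucleators, and ADD3, gamma-adducin, were called higher on 1 of 2 probe sets each (log2 differences 0.71 and 0.65, limma adjusted p = 0.0273 and 0.0443).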
